A study of Mus musculus with 3 samples.

Results

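Bcl2, Bcl2l1, Bid and Pim1 are 4 genes that decide between survival and death of developing T cells, and their transcripts were compared between CD69hi thymocytes and thymocytes of mice without the kinase Zap70. The 4 were chosen by name. On the arrays they are covered by 5 probes of 9596 and are 4 of the 6795 genes that probes with exactly 1 symbol represent. Bcl2 has 2 probes, called A and B here, and each of the other 3 genes has 1. Every member was measured on every array.

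Each of 3 spotted 2-colour arrays carried total RNA of CD69hi thymocytes, purified from wild-type B6 mice, beside total RNA of Zap70-/- thymocytes, which were not separated. The titles call this second RNA CD69lo, while the sample descriptions give it as unseparated Zap70-/-. CD69 is a surface protein that thymocytes raise after a T cell receptor signal, and thymocytes without Zap70 do not transmit that signal and stop at the CD4+CD8+ stage. The CD69hi RNA was labelled with Cy3 for arrays 1 and 2 and with Cy5 for array 3. Genotype and sorting differ together between the 2 RNAs, so their effects cannot be told apart. The sources used here give neither the age and sex of the mice nor whether each array came from its own mice. The p-values therefore reflect spread among 3 arrays, possibly technical. Cd69 and Zap70 were not analysed here, and neither the sort nor the mutation was checked on the arrays.

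The intrinsic death pathway is run by relatives of BCL-2. BCL-2 itself and BCL-XL, the main product of Bcl2l1, hold the effectors BAX and BAK in check at the mitochondrion, and BH3-only proteins such as BID relieve that block or activate the effectors. BID is cut by caspase-8 and so links death receptors to the mitochondrion. PIM1 is a serine-threonine kinase that is always active once made, is induced by cytokines, and phosphorylates the BH3-only protein BAD among other targets. In the thymus, CD4+CD8+ cells are known to depend on BCL-XL, while BCL-2 is known to be scarce at that stage and more abundant in mature single-positive cells.

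Values are log2 ratios of CD69hi over Zap70-/-, taken from the deposited log ratios with arrays 1 and 2 turned, so that 1 unit is a 2-fold difference if the deposited base is 2. The sources used here do not give that base. The submitters do not state the direction, which is a likely one. It rests on Rag1, the recombinase gene of immature thymocytes, at -1.37, -1.42 and -0.77 on arrays 1, 2 and 3. It also rests on Dntt at -1.03, -1.77 and -0.35, although Dntt did not pass the threshold given below (limma adjusted p = 0.12). Under the opposite reading every sign below turns, but the size of a difference between probes does not. Over all probes the untouched ratios correlated at 0.61 between arrays 1 and 2, at -0.25 between arrays 1 and 3 and at -0.40 between arrays 2 and 3. All 5 member probes changed sign with the dyes in the deposited values. Ratios give no level, so nothing here ranks the genes by abundance, and in bulk RNA fewer cells of a type and less RNA per cell cannot be told apart.

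Bid, Pim1 and Bcl2l1 were lower in CD69hi RNA, and the 2 probes of Bcl2 pointed in opposite directions. A feature passed where limma's Benjamini-Hochberg adjusted p did not exceed 0.05. Of 8905 features 6.94% passed, 2.81% lower and 4.13% higher in CD69hi RNA. Bid, Pim1 and Bcl2l1 passed and the averaged Bcl2 did not. The members were picked with earlier results known, so their share is a description.

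The promoters of the 4 genes are shown because 3 of the genes were lower together and Bcl2 was not uniform. They come from RefSeq on GRCm38.p6 and run over the 250 bases before the outermost listed start, 5′ to 3′ on the strand of the gene. Their positions are chr1:106714291-106714540 (minus strand) for Bcl2, chr2:152831729-152831978 (minus strand) for Bcl2l1, chr17:29490535-29490784 (plus strand) for Pim1 and chr6:120916825-120917074 (minus strand) for Bid. Capitals mark the GC box GGGCGG on either strand and the cAMP response element core TGACGT on either strand.
Bcl2: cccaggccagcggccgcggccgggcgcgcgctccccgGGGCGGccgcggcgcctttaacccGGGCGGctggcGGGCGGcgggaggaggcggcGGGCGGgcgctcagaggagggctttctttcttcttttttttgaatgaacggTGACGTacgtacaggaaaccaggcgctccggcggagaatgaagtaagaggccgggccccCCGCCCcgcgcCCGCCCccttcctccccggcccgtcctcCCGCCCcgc
Bcl2l1: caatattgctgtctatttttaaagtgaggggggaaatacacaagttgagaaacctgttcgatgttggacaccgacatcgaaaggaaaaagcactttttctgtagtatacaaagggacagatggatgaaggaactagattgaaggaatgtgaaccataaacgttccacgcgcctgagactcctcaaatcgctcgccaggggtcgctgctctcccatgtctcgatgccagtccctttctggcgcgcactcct
Pim1: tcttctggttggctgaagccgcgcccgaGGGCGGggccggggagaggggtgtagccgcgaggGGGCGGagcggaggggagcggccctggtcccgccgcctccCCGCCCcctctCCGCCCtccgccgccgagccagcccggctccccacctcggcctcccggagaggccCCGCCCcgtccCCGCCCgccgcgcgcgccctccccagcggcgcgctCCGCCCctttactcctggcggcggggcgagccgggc
Bid: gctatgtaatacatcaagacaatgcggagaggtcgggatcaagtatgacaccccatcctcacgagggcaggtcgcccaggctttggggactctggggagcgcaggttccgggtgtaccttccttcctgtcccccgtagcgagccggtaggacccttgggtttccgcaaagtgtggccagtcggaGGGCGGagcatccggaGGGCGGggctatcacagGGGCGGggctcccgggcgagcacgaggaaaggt

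The Bcl2 window held 7 GC boxes and 1 cAMP response element core, the Pim1 window 7 GC boxes and the Bid window 3. The outermost Bcl2l1 window held neither motif. The same held for the other 2 Bcl2l1 windows and the other Pim1 window of the table. The STAT site TTCNNNGAA, which cytokine signals act through, was in none of the 7 windows. Of 32851 windows of this length in the table, 32.7% held a GC box, 6.47% the element core and 7.02% the STAT site. The motifs were picked after the ratios were known, and a match describes letters only. The bases G and C made up 74.8% of the Bcl2 window, 82.4% of the Pim1 window, 63.6% of the Bid window and 47.6% of the Bcl2l1 window.

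**Figure D1:**
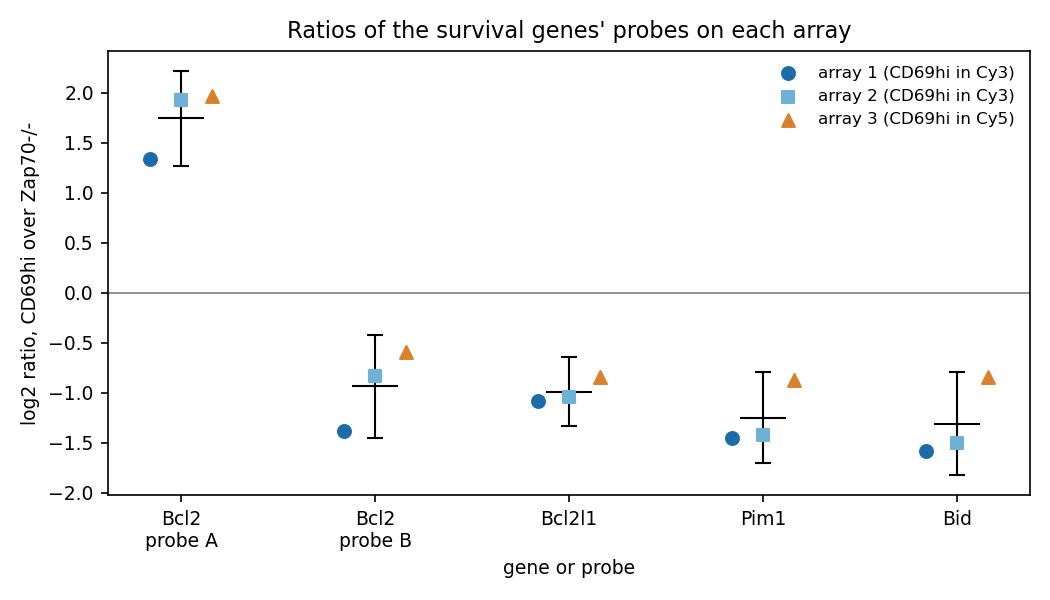
Log2 ratio of CD69hi over Zap70-/- RNA (vertical axis) for each probe of the 4 genes (horizontal axis). Points are single arrays, the long dash is the mean of 3 arrays and bars are 95% confidence intervals from limma. Bcl2 probe A lies above 0 on every array and the other 4 probes lie below 0 on every array.

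Bcl2l1, the BCL-XL gene, had log2 ratios of -1.08, -1.04 and -0.84 on arrays 1, 2 and 3. All 3 lay close together and below 0. Its mean was -0.99 ± 0.13 (SD, n = 3), a 1.98-fold lower signal in CD69hi RNA (95% confidence interval -1.33 to -0.64, limma adjusted p = 0.028). Of the 8905 features, 272 had a lower mean. Its SD was the smallest of the 5 member probes.

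Bid, the BH3-only gene that death receptors engage, had ratios of -1.58, -1.51 and -0.84. Array 3, with the dyes swapped, was the least negative. The mean was -1.31 ± 0.41 (SD, n = 3), a 2.48-fold lower signal in CD69hi RNA (interval -1.82 to -0.80, limma adjusted p = 0.033), and 148 features lay lower.

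Pim1, the survival kinase gene, had ratios of -1.46, -1.42 and -0.87. Its profile over the arrays resembled that of Bid, again with array 3 nearest to 0. The mean was -1.25 ± 0.33 (SD, n = 3), a 2.38-fold lower signal (interval -1.70 to -0.80, limma adjusted p = 0.030), and 160 features lay lower.

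For all 3 genes the dye-swapped array gave the smaller difference. With both dye orientations weighted equally, by a dye term in the fit, the ratios were -0.95 for Bcl2l1, -1.19 for Bid and -1.15 for Pim1. Array 3 is the only array of its dye orientation, so that fit takes its spread from arrays 1 and 2 alone. Its calls take no account of how far array 3 lies from the other arrays. None of the 3 passed without array 1 (limma adjusted p = 0.13 for Bcl2l1, 0.12 for Bid and 0.11 for Pim1) or without array 2 (0.20, 0.15 and 0.15). Their means in those fits stayed between -0.94 and -1.21, while calls over the whole table dropped from 618 to 201 without array 1 and to 119 without array 2.

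Bcl2, the founding survival gene of the family, gave no single answer. Probe A (platform number 646192) had log2 ratios of 1.33, 1.92 and 1.97 on arrays 1, 2 and 3, all above 0. The mean was 1.74 ± 0.36 (SD, n = 3), or 3.34-fold higher in CD69hi RNA (interval 1.27 to 2.22), and it passed in the fit of single probes (limma adjusted p = 0.018), in which 6.61% of 9596 probes passed. Its call was lost without array 2 (mean 1.65, adjusted p = 0.083). Probe B (platform number 649636) had ratios of -1.39, -0.83 and -0.59, all below 0, with a mean of -0.94 ± 0.41 (SD, n = 3). It did not pass (interval -1.45 to -0.42, adjusted p = 0.066).

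The average of both Bcl2 probes was -0.03, 0.55 and 0.69 on the 3 arrays, with a mean of 0.40 ± 0.38 (SD, n = 3) that did not pass (limma adjusted p = 0.28). On every array 1 probe lay far above that average and the other far below it.

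The distance between the Bcl2 probes was nearly the same on every array. Probe A exceeded probe B by 2.72, 2.76 and 2.56 on arrays 1, 2 and 3, a mean difference of 2.68 ± 0.10 (SD, n = 3; interval 2.30 to 3.05), or 6.40-fold. This difference is taken within each array, so the centring of the arrays cancels. It was tested together with the difference between the probes of every other gene with exactly 2 probes, a test added after the Bcl2 values were seen. Of 576 such genes Bcl2 alone passed (limma adjusted p = 0.022 over the 576 genes), which is 0.174%, and 86 had an unadjusted p of at most 0.05.

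The median absolute difference between the 2 probes of a gene was 0.21, and the 95th percentile was 1.07. Opposite mean signs alone were common, at 193 of the 576 genes. The 4 genes Sec23a, Gpld1, G2e3 and Tshz3 had larger mean differences than Bcl2, with SDs of 5.78, 1.28, 3.79 and 3.77 against 0.10 for Bcl2. The call for Bcl2 was lost when arrays were scaled to one spread (difference 2.71, adjusted p = 0.13), as it was without array 1 (2.66, 0.55), array 2 (2.64, 0.094) or array 3 (2.74, 0.15). It was kept with robust shrinkage (2.68, 0.017). With a dye term the difference was 2.65, in a fit that takes its spread from arrays 1 and 2 alone. RefSeq lists a pair of Bcl2 transcripts, but the sources used here do not say which transcript or stretch each probe binds, and whether one probe binds another RNA was not tested.

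**Figure D2:**
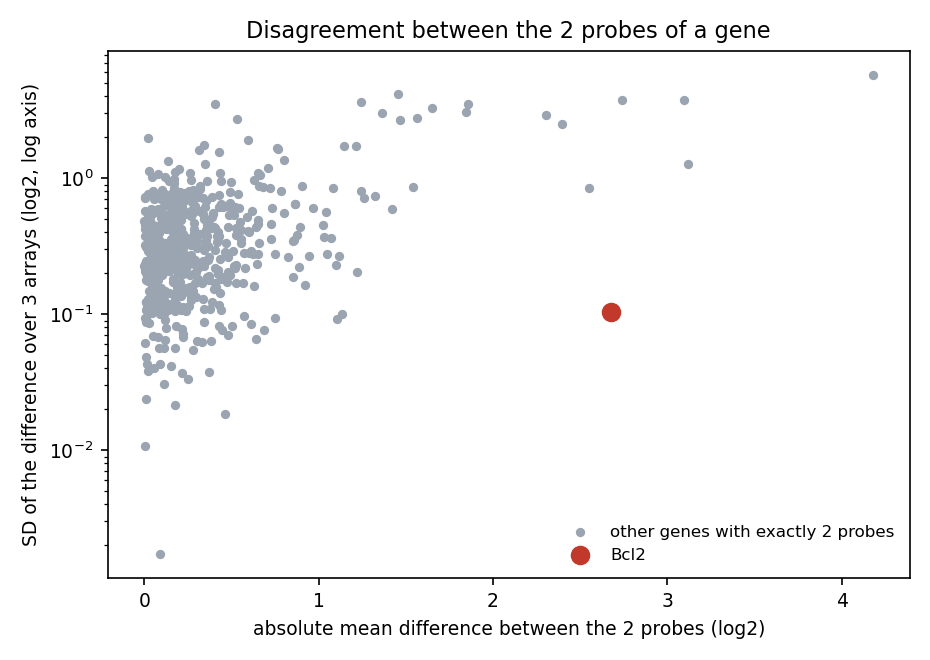
Each point is 1 of the 576 genes with exactly 2 probes, with the absolute mean difference between its probes on the horizontal axis (log2 units) and the SD of that difference over 3 arrays on the vertical log axis. Bcl2 (large point) combines a difference of 2.68 with an SD of 0.10, and the 4 genes further to the right have SDs from 1.28 to 5.78. Genes with smaller differences can have SDs as small, as B4galt5 does (1.13, SD 0.10).

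In order of ratio the probes ran from Bcl2 probe A through Bcl2 probe B, Bcl2l1 and Pim1 to Bid. The lower 4 lay close together. Bcl2 probe B differed from Bcl2l1 by 0.05 ± 0.31 (SD, n = 3), with both signs over the arrays. Bcl2l1 exceeded Pim1 by 0.26 ± 0.20, on all 3 arrays, and Pim1 exceeded Bid by 0.06 ± 0.08, less than the SD. An exact sign-flip test over 3 arrays (two-sided, 4 neighbouring pairs) cannot give a p below 0.25, and after adjustment none of the 4 lay below 0.50.

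The genes with the most similar values were found by Euclidean distance over the 3 array ratios, with each gene compared to all other named genes. Nearest to Bcl2l1 was Myb, a transcription factor of immature thymocytes, with ratios from -1.05 to -0.92 (distance 0.096), followed by Slc41a1 (0.11) and Ostm1 (0.11). Nearest to Bid was the glycosyltransferase gene Mgat1, at -1.54, -1.48 and -0.87 (distance 0.061), followed by Ssbp2 (0.10) and by Pim1 itself (0.15). Pim1 lay closest to 5430411K18Rik (0.059), the cell division gene Cdca2 (0.073) and again Mgat1 (0.099). The averaged Bcl2 lay closest to Cd22 (0.10), Sdc1 (0.13) and Tnnt1 (0.16). Taken apart, probe A was nearest to Igfbp4 (0.19), Gimap7 (0.20) and Rapgef6 (0.25), all of which rose. Probe B was nearest to Cldn4 (0.23), Ldhb (0.27) and Gm5134 (0.27), all of which fell. With 3 arrays such likeness is only a description.

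The rest of the survival and death machinery was read from 10 lists with 206 genes, of which 121 were measured. Of the 117 measured genes that are not members, 20 rose (17.1%) and 5 fell (4.27%), with a median of 0.07, against 4.13% and 2.81% of all features and a median of 0.01. The lists were written with earlier results of these data known. Of the 20 risers, 7 were in the list of transcription factors and 5 in the list of cytokine and kinase inputs. The counts for the 117 genes were 9 rising and 1 falling when array 1 was left out, 6 and 1 for array 2, and 11 and 9 for array 3. Over all 8905 features, calls in either direction in these fits numbered 201, 119 and 692, against 618 with all 3 arrays. The leave-out counts of single lists below come from the same fits.

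**Figure D3:**
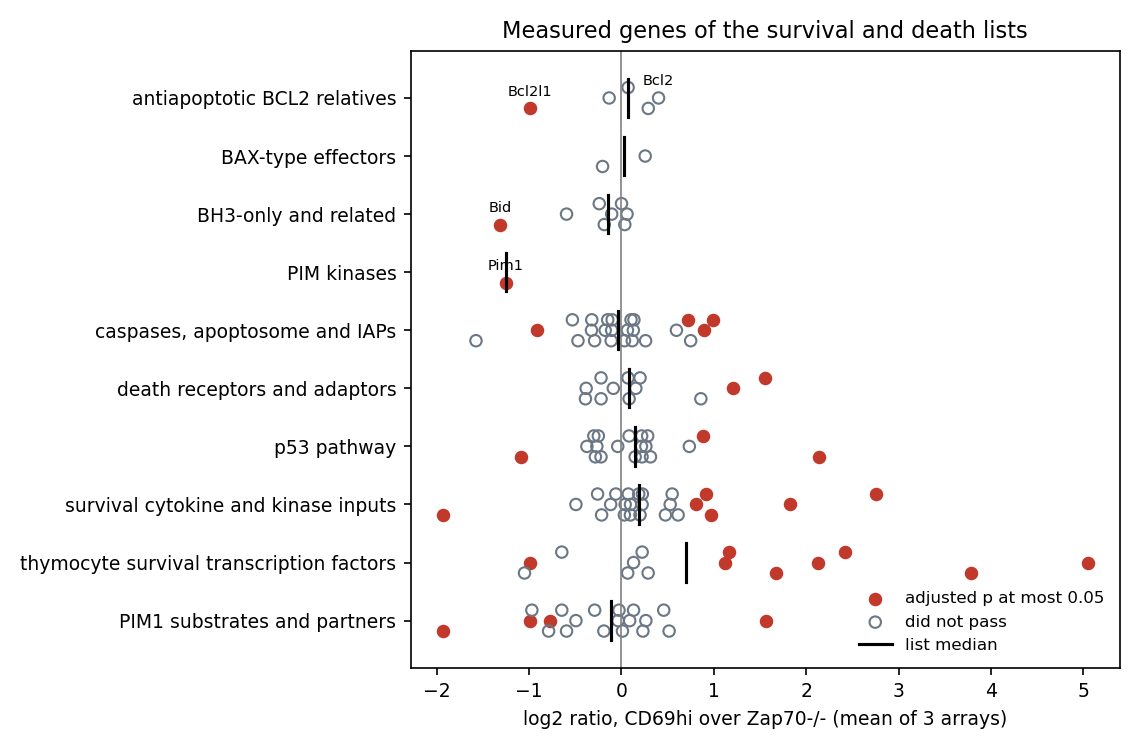
Mean log2 ratio of CD69hi over Zap70-/- RNA (horizontal axis) for each measured gene of the 10 lists (rows). Filled points passed at an adjusted p of at most 0.05, open points did not, vertical bars are list medians, and the 4 genes are labelled. In the BCL2, BAX and BH3 rows only Bcl2l1 and Bid passed, with Bcl2 shown as the mean of its probes.

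Among the antiapoptotic relatives 5 of 9 listed genes were measured, and with Bcl2 averaged over its probes Bcl2l1 alone passed. Bcl2 probe A, fitted singly, rose and passed (1.74, limma adjusted p = 0.018). Mcl1, a short-lived survival protein gene of thymocytes, had ratios of 0.29, 0.28 and 0.30, a tight mean of 0.29 ± 0.01 (SD, n = 3) that did not pass (limma adjusted p = 0.25). Bcl2l2 (0.07 ± 0.45) and Bcl2l10 (-0.13 ± 0.38) had both signs over the arrays. The effector gene Bak1 stood at 0.26 ± 0.14 and its relative Bok at -0.20 ± 0.14, and neither passed (adjusted p = 0.33 and 0.42). Of 8 measured genes in the BH3-only and related list Bid alone passed, and Bad, the BH3-only target of PIM1, had ratios of -0.77, -0.76 and -0.26 (adjusted p = 0.12, and 0.046 without array 3). Fallers made up 20% of the antiapoptotic list and 12.5% of the BH3-only list, against 2.81% of all features. With Bcl2 averaged no gene of these lists rose, against 4.13% of all features. The genes that passed here were members chosen by name, so these shares describe that choice. Pim1 was the single PIM kinase gene measured. Without array 1 or array 2 no gene of these 4 lists passed, with Bcl2 averaged.

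Of 24 genes for caspases, the apoptosome and inhibitors of apoptosis, 3 rose (12.5%, against 4.13% of all features) and 1 fell (4.17%, against 2.81%). The list median was -0.03. Birc3, a ubiquitin ligase that restrains cell death downstream of tumour necrosis factor receptors, rose (0.99 ± 0.16, SD, n = 3, limma adjusted p = 0.029), as did the apoptosis inhibitor family member Naip5 (0.90 ± 0.25) and Cidea (0.72 ± 0.08). Casp2, an initiator caspase gene, fell (-0.92 ± 0.24, adjusted p = 0.039). Casp8, whose product cuts BID, had ratios of 0.43, 0.98 and 0.84 and did not pass (adjusted p = 0.071). Birc5, the survivin gene of dividing cells, had ratios of -1.19, -2.70 and -0.84 and did not pass either (adjusted p = 0.093). Casp2 and Cidea did not pass with the arrays scaled to one spread (adjusted p = 0.051 and 0.052). No gene of this list passed without array 1 or without array 2, and without array 3 the counts were 1 and 2.

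Of 12 death receptor and adaptor genes, 2 rose (16.7%, against 4.13% of all features) and 0 fell (against 2.81%), with a median of 0.08. Tnfrsf1b, a receptor of tumour necrosis factor that lacks a death domain, was 2.93-fold higher (1.55 ± 0.06, SD, n = 3, limma adjusted p = 0.011), and the adaptor gene Traf1 rose by 1.21 ± 0.06 (adjusted p = 0.017). Fadd, the adaptor that recruits caspase-8, had a mean of -0.39 ± 0.27 and did not pass. Without array 1 the list had 1 riser, and without array 2 it had 0. In the p53 list 2 of 19 genes rose (10.5%) and 1 fell (5.26%), against the same shares of all features, with a median of 0.15. Gadd45b (2.14 ± 0.55, adjusted p = 0.020) and Gadd45a (0.88 ± 0.22), both stress-induced growth arrest genes, rose, and the p53 target Trp53inp1 fell (-1.09 ± 0.05, adjusted p = 0.020). Without array 1 no p53 list gene passed, without array 2 only 1 rose, and without array 3 the counts were 1 and 1.

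Among 24 cytokine receptor, JAK-STAT and AKT pathway genes upstream of survival, 5 rose (20.8%, against 4.13% of all features) and 1 fell (4.17%, against 2.81%). The list median was 0.19. Il7r, the receptor chain for interleukin-7, rose (2.76 ± 0.22, SD, n = 3), with Il2rb (1.82 ± 0.76) and Cish (0.97 ± 0.18), an inhibitor that STAT5 induces. Socs3 fell (-1.93 ± 0.20, limma adjusted p = 0.0095) and Socs1 did not pass at -0.49 ± 0.23. The Il2rb call was lost when array 2 or array 3 was left out (adjusted p = 0.13 and 0.089) and under a dye term (0.051). Akt1 had both signs over the arrays, at 0.58, -0.31 and 0.03. Without array 1 the list had 2 risers, without array 2 it had 1 and without array 3 it had 2, with 1 faller each time.

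The list of transcription factors linked to thymocyte survival had 7 of 14 genes rising (50%, against 4.13% of all features) and 1 falling (7.14%, against 2.81%). Its median of 0.70 was the highest of the 10 lists. A place on this list does not tell whether a factor favours survival or death. Nr4a3 (5.05 ± 2.24, SD, n = 3), Nr4a1 (3.78 ± 0.06), Klf2 (2.43 ± 0.34) and the NF-κB subunit gene Relb (2.13 ± 0.37) rose furthest, and Myb fell (-0.99 ± 0.07, limma adjusted p = 0.024). Nr4a3 did not pass without array 3 (adjusted p = 0.090), with scaling (0.058), with a dye term (0.075) or with robust shrinkage (0.088). Without array 1 this list had 5 risers, without array 2 it had 4 and without array 3 it had 4, with 0, 0 and 3 fallers. Among 20 substrates and partners of PIM1, 1 rose (5%, against 4.13% of all features) and 3 fell (15%, against 2.81%), with a median of -0.11. Nfatc1, a calcium-regulated factor, rose (1.57 ± 0.21), and Socs3, Myb and Runx1 (-0.78 ± 0.09, adjusted p = 0.039) fell. Myc, which acts together with PIM1 in lymphoid tumours, had ratios of -0.76, -0.83 and -0.35 and did not pass (adjusted p = 0.089), except without array 3 (0.045) or with a dye term (0.048). Without array 1 or array 2 only Socs3 fell among the partners, and without array 3 there were 5 fallers.

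Some marker transcripts of other cells also differed between the 2 RNAs. Of 11 measured macrophage and dendritic cell markers 7 rose (63.6%) and 0 fell, with a median of 1.22. Single genes ran from 0.04 (Itgam) to 2.51 (Lyz2). Of all features 4.13% rose and 2.81% fell. Of 7 granulocyte markers 0 rose and 1 fell (median -0.94), and of 5 B cell markers none passed (median 0.41). Of 4 natural killer and innate-like markers 1 fell, the granzyme gene Gzma at -2.29 ± 0.94 (SD, n = 3, limma adjusted p = 0.039), and the list median was 0.53. The 1 erythroid marker measured, Alas2, did not pass (0.53 ± 0.21). Thymocyte markers had a median closer to 0 (-0.25), with single genes from -1.19 (Rag1) to 0.06 (Thy1). Of the 8 markers 1 fell, and that 1 was Rag1, which set the direction. Cd8a (-1.13 ± 0.62) and Dntt (-1.05 ± 0.71) did not pass. Without array 3 the fallers were 4 among granulocyte and 2 among thymocyte markers, and without array 1 or array 2 neither list had a faller and Gzma did not pass. Bcl2, Bcl2l1, Bid and Pim1 are also expressed outside the T lineage. The part of these other cells in the ratios of the 4 genes and of the list genes was not tested.

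**Figure D4:**
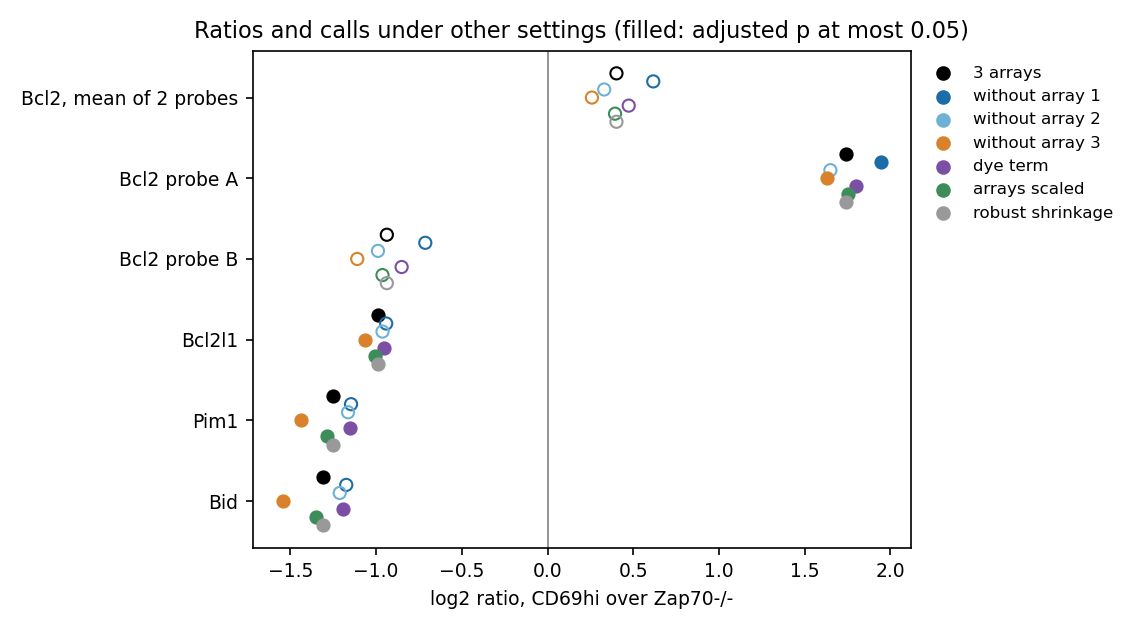
Log2 ratio of CD69hi over Zap70-/- RNA (horizontal axis) of the averaged Bcl2, its 2 probes and the other 3 genes (rows) under each setting of the fit (colours), with filled points where the adjusted p was at most 0.05. No ratio changed sign, while Bcl2l1, Pim1 and Bid are open without array 1 and without array 2.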

How the data were processed

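The authors deposited 1 log ratio per probe and array, read here as log2 of Cy5 over Cy3. The sources used here name no log base, background correction or normalization. Array medians lay within -0.005 and -0.002. Dim spots stayed in, since the table holds no intensities, and the number of arrays, 3, limits the precision. Columns were matched to samples by their names, and arrays 1 and 2 were multiplied by -1 by the labelled dyes.

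Of 9596 probes, 7486 had 1 symbol, 483 several and 1627 none in the platform annotation. Entrez identifiers of 7395 were found in RefSeq (GRCm38.p6), which changed 0 symbols. Averaging the probes of each symbol, with the remaining probes kept single, gave 8905 features. No genome coordinates are given for probes.

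Each feature was fitted with limma 3.58.1 in R 4.3.3 (lmFit, eBayes, 1 coefficient, 2 residual and 2.75 prior degrees of freedom), two-sided, with Benjamini-Hochberg adjustment over all features. Single probes, and differences between the probes of 2-probe genes, were fitted the same way. A ± gives the SD over arrays. The fit was tested on simulated data with independent arrays and no dye effect, so that test does not cover a dye swap or RNA shared between arrays. Named were the 4 members, in each list up to 4 called genes with the largest ratios, or 2 by moderated t where none passed, and the 3 nearest genes per member. Mcl1, Bcl2l2, Bcl2l10, Bad, Casp8, Birc5, Fadd, Socs1, Akt1, Myc, Lyz2, Itgam, Gzma, Alas2, Cd8a, Thy1 and the genes with large probe differences are named outside this rule, after their values were seen. The members and lists were chosen with earlier results of these data known.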

Additional observations from a re-analysis of the deposited data

How the results depend on the processing

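Ratios of the 4 genes, the Bcl2 probes and the list genes named by the rule kept their sign under every alternative run. These were each array left out, a dye term, arrays scaled to one spread, robust shrinkage, median centring and, for genes, the median of probes. Robust shrinkage and the median of 1 or 2 probes cannot change a ratio, and centring removed array medians within -0.005 and -0.002. Bcl2l1, Bid, Pim1 and each Bcl2 probe had 1 sign on all 3 arrays. For them leaving out an array, a dye term or scaling cannot change it. Fitted singly, the 1 probe of Bcl2l1, Bid and Pim1 gave the same ratio, while the Bcl2 probes had opposite signs (1.74 and -0.94). Leaving out 1 array in turn gave ratios of -1.06 to -0.94 for Bcl2l1, -1.54 to -1.17 for Bid, -1.44 to -1.15 for Pim1 and 1.63 to 1.95 for Bcl2 probe A; the first 3 did not pass without array 1 or array 2, and the Bcl2 probe did not without array 2. The difference between the Bcl2 probes ran from 2.64 to 2.74 and passed in none of these fits, nor with scaling (2.71). It passed with robust shrinkage (2.68), and with a dye term it was 2.65. These alternatives for the difference were added after seeing the data. Features called numbered 119 to 692 with 1 array left out and 1076 with a dye term. With no array turned 0 were called (limma), with 342 at an unadjusted p up to 0.05, a setting that leaves the labelled dye swap out. Of 28 called genes of the survival and death lists, 10 remained called without array 1, 7 without array 2 and 18 without array 3; the numbers of list genes called ran from 7 to 23 in these fits. Of the genes named outside the rule, 3 that did not pass changed sign: Bcl2l2 ran from -0.087 to 0.33, Bcl2l10 from -0.34 to 0.033 and Akt1 from -0.14 to 0.30 with 1 array left out, and Bcl2l2 was -0.058 with a dye term. Over the survival and death list genes named beside the members, 36 values lost their call under an alternative, 3 gained one, 5 changed sign and 212 kept sign and side of the threshold. A fit on 2 arrays has 1 residual degree of freedom, and so has the fit with a dye term, where array 3 adds nothing to the measured spread. Signal over background was not analysed here.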

Other observations

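Disagreement between probes was not limited to Bcl2. Of the 576 genes with exactly 2 probes, 34 had mean differences of at least 1 on the log2 scale. In 10 of them, Bcl2 included, the SD over the arrays was under 0.5. Among these 10 were B4galt5 (1.13 ± 0.10) and Ube2g1 (1.10 ± 0.09), and neither passed (limma adjusted p = 0.19 for each). Gsdmc2 and Gpld1 had larger differences and larger SDs. For Gsdmc2 the first probe had a mean of 0.10 and the second -2.45, and the difference of 2.55 ± 0.84 (SD, n = 3) did not pass (limma adjusted p = 0.21). For Gpld1 the probes stood at 0.33 and -2.79, with a difference of 3.12 ± 1.28 (adjusted p = 0.21).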
